A study of Mus musculus with 3 samples.

Results

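The genes described are the axon guidance ligands and receptors of mouse prefrontal cortex, followed across 7 cell classes. They were taken from the expression table by symbol: every row that starts with Sema, Plxn, Efna, Efnb, Epha, Ephb or Unc5, or with Robo or Slit and a digit, together with Nrp2, Dcc, Ntn1 and Neo1. This rule found 70 of the 20368 genes in the table. It took in 4 rows that are not guidance genes by name, Unc50, Unc5cl and the antisense transcripts Plxna4os1 and Plxna4os2, which are counted as members and described apart. A level is given in CPM, corrected counts scaled to a total of 1000000 in each cell and averaged over the cells of a class in 1 library. Of the 70 members, 34 had a mean over the class means of at least 10 CPM and entered the tests, and 36 did not.

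All cells came from 1 group, mice of both sexes that inhaled sevoflurane, a volatile anaesthetic, at about 3% on postnatal day 6 and were killed on that day. The group has 3 libraries of single cells, made on the 10x Genomics Chromium platform, and the labels name no unexposed mice, no strain and no genetic change. All comparisons are thus between cell classes of exposed mice, and an effect of sevoflurane cannot be read from them. The labels do not tie the libraries to separate animals, so the p-values rest on the spread between these 3 libraries, which may be technical.

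Axon guidance genes encode short-range and diffusible cues and the receptors that read them at the growing tip of an axon or the front of a migrating cell. Semaphorins signal through plexins, with neuropilins as co-receptors for the secreted class 3. Ephrins are bound to the membrane of one cell and act on Eph receptor tyrosine kinases of the next. Slits are secreted ligands of Robo receptors, and netrin-1 acts through Dcc, neogenin (Neo1) and the Unc5 receptors. In the early postnatal cortex the same families are also known from glia, from migrating neuroblasts and from vessels, where several members pattern arteries and veins.

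A cell was placed in a class when both of a pair of marker genes were above 0, and cells that met the rule for 2 classes (734 cells) were dropped. The classes were astrocytes (Aqp4 and Gja1, 3457 cells), oligodendrocyte precursor cells or OPCs (Pdgfra and Lhfpl3, 2768), oligodendrocytes (Mag and Mobp, 27), neuroblasts (Dlx1 and Sp9, 1809), microglia (P2ry12 and Csf1r, 1635), endothelium (Cldn5 and Flt1, 774) and pericytes (Kcnj8 and Vtn, 852). Another 2136 of the 14192 cells were in no class. The libraries held 4775, 5134 and 4283 cells, with 24612481 to 29581504 corrected counts each and a median of 2502 to 2603 detected genes per cell; 90 of 14102 barcode sequences occurred in more than 1 library. Median detected genes ranged over the classes from 1866 in neuroblasts to 2847.5 in endothelium. Of 8 markers per class that the gates did not use, all 8 were highest in their own class for neuroblasts, microglia, endothelium, pericytes and oligodendrocytes, 7 of 8 for astrocytes, and 5 of 8 for OPCs. Markers of other cells were also found. Border macrophage markers (Pf4, Lyve1, Mrc1) summed to 481 to 768 CPM in the microglia class and smooth muscle markers (Acta2, Tagln, Myh11) to 367 to 940 CPM in the pericyte class. Ependymal markers (Foxj1, Ccdc153, Tmem212) summed to 10.2 to 221 CPM in the astrocyte class. Erythroid markers (Hbb-bs, Hba-a1, Alas2) summed to 13621 to 15497 CPM in endothelium and 1235 to 9145 CPM in the other fitted classes. Whether whole cells of these types or only their RNA were present was not tested. Markers of excitatory neurons summed to at most 10.1 CPM in any library of a class.

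The promoters of 4 members, picked without a stated rule, are shown as examples of sequences in front of guidance genes that share a cell class. Robo4 and Plxnd1 both had their highest level in endothelium, and Sema3d and Sema5a in OPCs among the 6 classes tested. Each run below gives the 250 bases before the transcription start in RefSeq (GRCm38.p6), 5′ to 3′ on the gene's own strand, with every CG dinucleotide in capitals. They lie at chr9:37401722-37401971 (plus strand, Robo4), chr6:115995006-115995255 (minus strand, Plxnd1), chr5:12382916-12383165 (plus strand, Sema3d) and chr15:32244563-32244812 (plus strand, Sema5a).
Robo4: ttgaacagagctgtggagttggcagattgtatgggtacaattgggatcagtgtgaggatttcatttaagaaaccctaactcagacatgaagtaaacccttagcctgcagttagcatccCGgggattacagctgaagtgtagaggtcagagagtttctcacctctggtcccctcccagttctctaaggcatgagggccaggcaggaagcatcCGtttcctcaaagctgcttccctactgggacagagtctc
Plxnd1: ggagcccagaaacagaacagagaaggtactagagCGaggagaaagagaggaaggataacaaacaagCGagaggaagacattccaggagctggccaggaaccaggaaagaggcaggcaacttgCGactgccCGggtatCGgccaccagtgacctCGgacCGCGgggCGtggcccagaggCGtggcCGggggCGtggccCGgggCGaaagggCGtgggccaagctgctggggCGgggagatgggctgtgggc
Sema3d: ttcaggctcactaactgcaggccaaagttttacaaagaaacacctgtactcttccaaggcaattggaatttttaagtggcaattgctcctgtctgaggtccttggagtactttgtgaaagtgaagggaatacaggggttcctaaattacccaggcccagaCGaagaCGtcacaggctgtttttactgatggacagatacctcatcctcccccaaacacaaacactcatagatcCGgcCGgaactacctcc
Sema5a: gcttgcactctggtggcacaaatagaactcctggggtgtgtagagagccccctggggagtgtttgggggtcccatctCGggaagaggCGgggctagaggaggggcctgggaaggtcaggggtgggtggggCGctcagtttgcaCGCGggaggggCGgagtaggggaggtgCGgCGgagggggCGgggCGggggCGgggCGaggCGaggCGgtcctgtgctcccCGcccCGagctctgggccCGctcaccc
Within the endothelial pair, Robo4 had 2 CG dinucleotides and 49.6% G and C, against 16 and 64.8% for Plxnd1. Within the OPC pair, Sema3d had 4 and 46.8%, against 17 and 72% for Sema5a. Robo4 and Sema3d were the exceptions in their classes. The other tested members highest in endothelium had 12 to 39 CG dinucleotides per window. Those highest in OPCs, where a promoter matched, had 17 to 25. The GC box GGGCGG, searched on both strands, occurred 5 times for Sema5a and 1 time for Plxnd1, and these letters were not in the windows of Robo4 and Sema3d. RefSeq promoters matched 58 members by symbol, with 74 starts between them. The box was in 53 of those 74 windows (71.6%), against 49.1% of 18231 windows of genes in the expression table and 32.7% of all 32851 windows. CG dinucleotides numbered a median of 16 per member window, 12 per window of a gene in the table and 6 over all windows. These are descriptions of sequence and not tests.

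The families differed in how many members reached 10 CPM. All 3 ephrin-B ligands, both class 5 semaphorins, Sema7a, Plxnc1 and Plxnd1, Nrp2 and Ntn1 were tested, as were 4 of 6 class 4 and 2 of 4 class 6 semaphorins, 3 of 5 EphB receptors and 3 of 6 netrin receptors. Only 2 of 7 class 3 semaphorins, 1 of 4 plexin A, 2 of 3 plexin B, 2 of 5 ephrin-A, 2 of 9 EphA and 2 of 4 Robo genes were, and none of the 3 Slit genes. A member could reach the minimum through 1 class alone, so counts over the tested members carry that selection. Each of the 34 tested members differed among the 6 classes (F test in limma, Benjamini-Hochberg adjusted p under 0.05), which sets nothing apart, since 98.9% of all 9768 genes tested did. The class with the highest level was the astrocyte for 10 members (29.4%, against 15.7% of all genes tested), endothelium for 8 (23.5% against 16.4%), OPC for 7 (20.6% against 23.5%), pericyte for 4 (11.8% against 13.9%), neuroblast for 3 (8.82% against 18.8%) and microglia for 2 (5.88% against 11.7%). In 26 of the 34 (76.5%) the 3 libraries of that class all lay above all libraries of the other 5 classes, as they did for 63.5% of all genes tested.

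**Figure D1:**
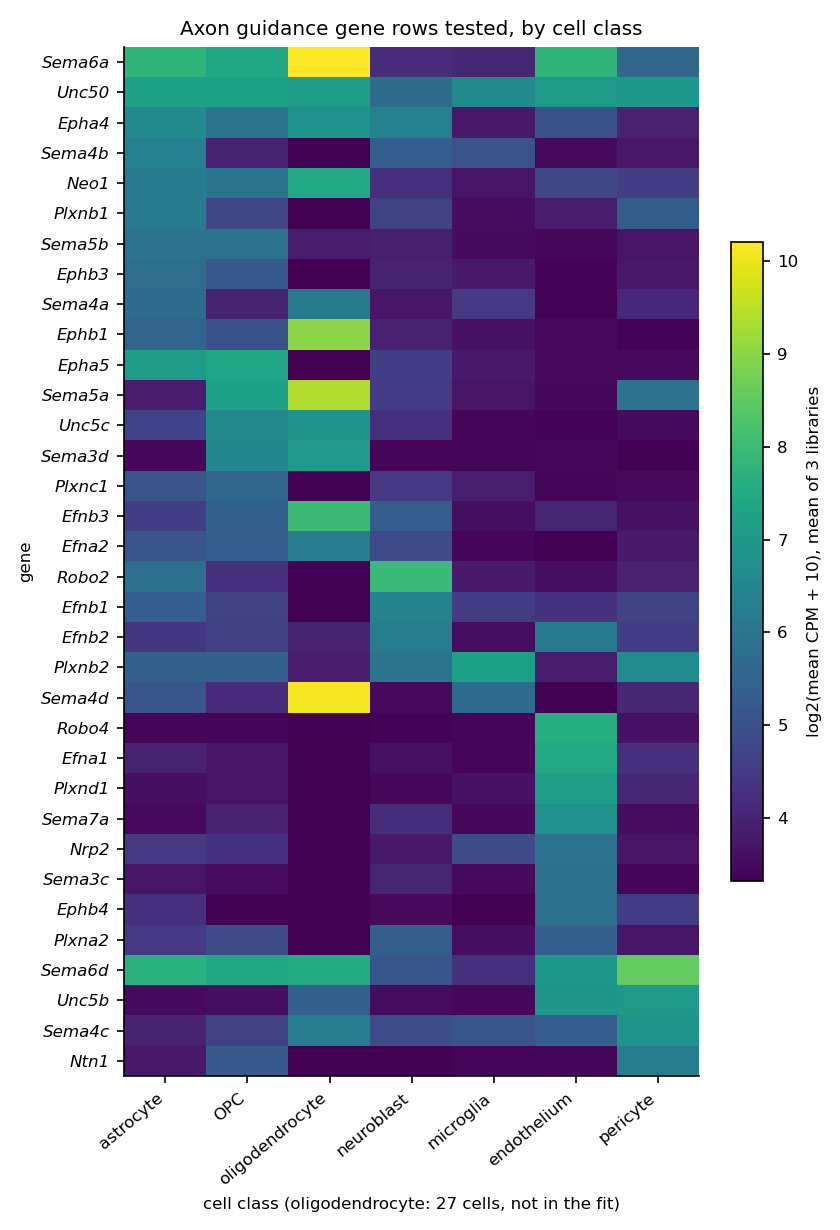
Level of the 34 tested rows in each class as log2 of the mean CPM of 3 libraries plus 10, with rows ordered by the class, of the 6 fitted, in which the level was highest. Robo4, Efna1, Plxnd1 and Sema7a are bright in the endothelium column, and the oligodendrocyte column, which rests on 27 cells and was not fitted, is brightest at Sema6a and Sema4d. Unc50 is not a guidance gene by name.

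Of the 36 members below the minimum for testing, Robo1 in OPCs (38.2 CPM) had the highest mean in a fitted class, and several others were still raised in a single class. Sema6c, a class 6 semaphorin, was at 33.6, 28.4 and 22.8 CPM in neuroblasts and at most 10.9 CPM in any library of another fitted class. Its relative Sema6b was at 30.3, 24.4 and 23.3 CPM in OPCs and at most 8.43 CPM elsewhere, and Ephb6, an EphB receptor without kinase activity, at 29.8, 23.6 and 27.2 CPM in OPCs and at most 11.8 CPM elsewhere. In each of these genes the libraries of 1 class stood clear of the rest. Plxna3 was at 11.7 to 14.3 CPM in neuroblasts and 10.2 to 11 CPM in OPCs, and Sema4g at 8.26 to 14.3 CPM in neuroblasts, which overlapped OPCs at 7.08 to 9.92 CPM. Sema4f was at 8.46 to 10.1 CPM in OPCs and the ephrin-A ligand Efna4 at a mean of 9.62 CPM in neuroblasts. The EphA receptors Epha3, Epha7 and Epha10 and the class 3 semaphorins Sema3a and Sema3b had their highest fitted means between 2.78 and 6.5 CPM, and Epha1, Epha6, Epha8 and Robo3 did not exceed a mean of 0.388 CPM.

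Astrocytes and OPCs are the large glial classes at this age, and several guidance genes separated them while the class 6 semaphorins Sema6a and Sema6d and the class 5 Sema5b were plentiful in both. OPCs held Sema5a and Sema3d, with the netrin receptor Unc5c and netrin-1 itself, while astrocytes held the class 4 semaphorins Sema4b and Sema4a together with the receptors Robo2 and Plxnb1. Of 34 members, 22 passed (adjusted p under 0.05 in limma over all genes tested), 12 higher and 10 lower in astrocytes. That share, 64.7%, was near the 62.8% of all genes that passed. Of all genes tested, 21.2% were higher and 41.5% lower in astrocytes. The median member differed by 0.03 on the log2 scale, and the median of all genes by -0.14. Centring each library and class on its median gene gave 15 higher and 8 lower, with a median of all genes of -0.01. Here and below, the shares of all genes higher and lower are from the main fit, without centring.

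Sema5a, a transmembrane semaphorin with thrombospondin repeats (chromosome 15, 32244810 to 32696341 in the mm10 annotation of GENCODE M21), was at 144, 145 and 143 CPM in the OPCs of libraries 1, 2 and 3 and at 3.42, 3.89 and 5.58 CPM in astrocytes. Every OPC value lay above every astrocyte value, and the next class was pericytes at 51.7 ± 8.78 CPM (SD, n = 3 libraries). The difference, astrocyte minus OPC on the log2(mean + 10 CPM) scale on which all differences are given, was -3.43 ± 0.13 (SE, limma, adjusted p = 6.76e-15).

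Sema3d is a secreted class 3 semaphorin (chromosome 5, 12383385 to 12588948). It was at 82.4, 77.7 and 85.1 CPM in OPCs and at 0.687 to 1.44 CPM in astrocytes, a difference of -3.04 ± 0.07 (limma, adjusted p = 5.27e-18). No other fitted class exceeded 1.59 CPM in any library, so among these 6 classes Sema3d was an OPC gene. The related Sema3c, Sema3e and Sema3g stood elsewhere, in endothelium (48.6 ± 12.4 CPM), in oligodendrocytes (81.7 ± 6.6 CPM) and in endothelium (26.8 ± 12.7 CPM).

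Netrin-1 and 1 of its receptors were higher in OPCs as well. Unc5c, a receptor that mediates repulsion by netrin (chromosome 3, 141465216 to 141834924), was at 85.6, 80.2 and 89.7 CPM in OPCs and 11.7, 17.5 and 19.4 CPM in astrocytes, with no overlap (-1.87 ± 0.19, limma, adjusted p = 5.35e-08). Ntn1, the secreted ligand, was at 26.2, 25.2 and 31.4 CPM in OPCs and 3.06 to 5.06 CPM in astrocytes (-1.44 ± 0.10, limma, adjusted p = 1.81e-10). Neo1, the neogenin receptor, was at 52.8 ± 1.71 CPM in OPCs and 62.2 ± 4.73 CPM in astrocytes, and its difference did not pass (0.20 ± 0.12, limma, adjusted p = 0.162), although it did at 0.31 without scaling per cell, at 0.33 after centring and at 0.20 with these classes alone in the fit (limma, adjusted p = 0.0335, 0.0244 and 0.00986). Dcc, the receptor for attraction, was below the minimum for testing at 18.8 ± 2.86 CPM in OPCs and 6.82 ± 1.31 CPM in astrocytes, without overlap between their libraries.

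On the astrocyte side, Sema4b (chromosome 7, 80186841 to 80226527), a transmembrane class 4 semaphorin, was at 67.1, 74.0 and 70.7 CPM against 5.56 to 6.34 CPM in OPCs, a difference of 2.34 ± 0.16 (limma, adjusted p = 1.68e-10). Sema4a, of the same class, was at 39.1, 42.6 and 48.0 CPM against 5.69 to 6.75 CPM (1.72 ± 0.13, limma, adjusted p = 7.07e-10). The third, Sema4d, was at 24.1 to 28.0 CPM against 6.58 to 8.33 CPM (1.02 ± 0.09, limma, adjusted p = 4.14e-09). In none of the 3 genes did the libraries of the classes overlap. Sema4c, the fourth of its class tested, went the other way and was lower in astrocytes, at 6.08 ± 0.484 CPM against 15.5 ± 3.16 CPM (-0.66 ± 0.15, limma, adjusted p = 0.000805).

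Receptors higher in astrocytes included Plxnb1, the plexin that binds Sema4d (chromosome 9, 109095389 to 109119917), at 59.4, 58.0 and 64.9 CPM against 16.6 to 18.1 CPM in OPCs (1.37 ± 0.16, limma, adjusted p = 3.89e-07). Robo2, a Slit receptor, was at 44.7, 44.7 and 52.5 CPM against 8.34 to 9.89 CPM (1.60 ± 0.18, limma, adjusted p = 1.84e-07). Robo1, its close relative, was below the minimum for testing and stood the other way, at 38.2 ± 3.29 CPM in OPCs and 7.83 ± 2.44 CPM in astrocytes. Ephb4 was at 8.64 to 10.4 CPM in astrocytes and at most 0.566 CPM in OPCs (0.89 ± 0.08, limma, adjusted p = 8.72e-09). Some members did not separate these classes: Sema5b was at 50.5 ± 4.11 CPM in astrocytes and 49.9 ± 2.97 CPM in OPCs (0.01 ± 0.09, limma, adjusted p = 0.902), and Plxnb2 at 33.3 ± 5.01 and 33.5 ± 1.37 CPM (-0.01 ± 0.11, limma, adjusted p = 0.928), a difference whose sign turned with the scaling. The ependymal markers in the astrocyte class were not tested for a part in these differences.

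**Figure D2:**
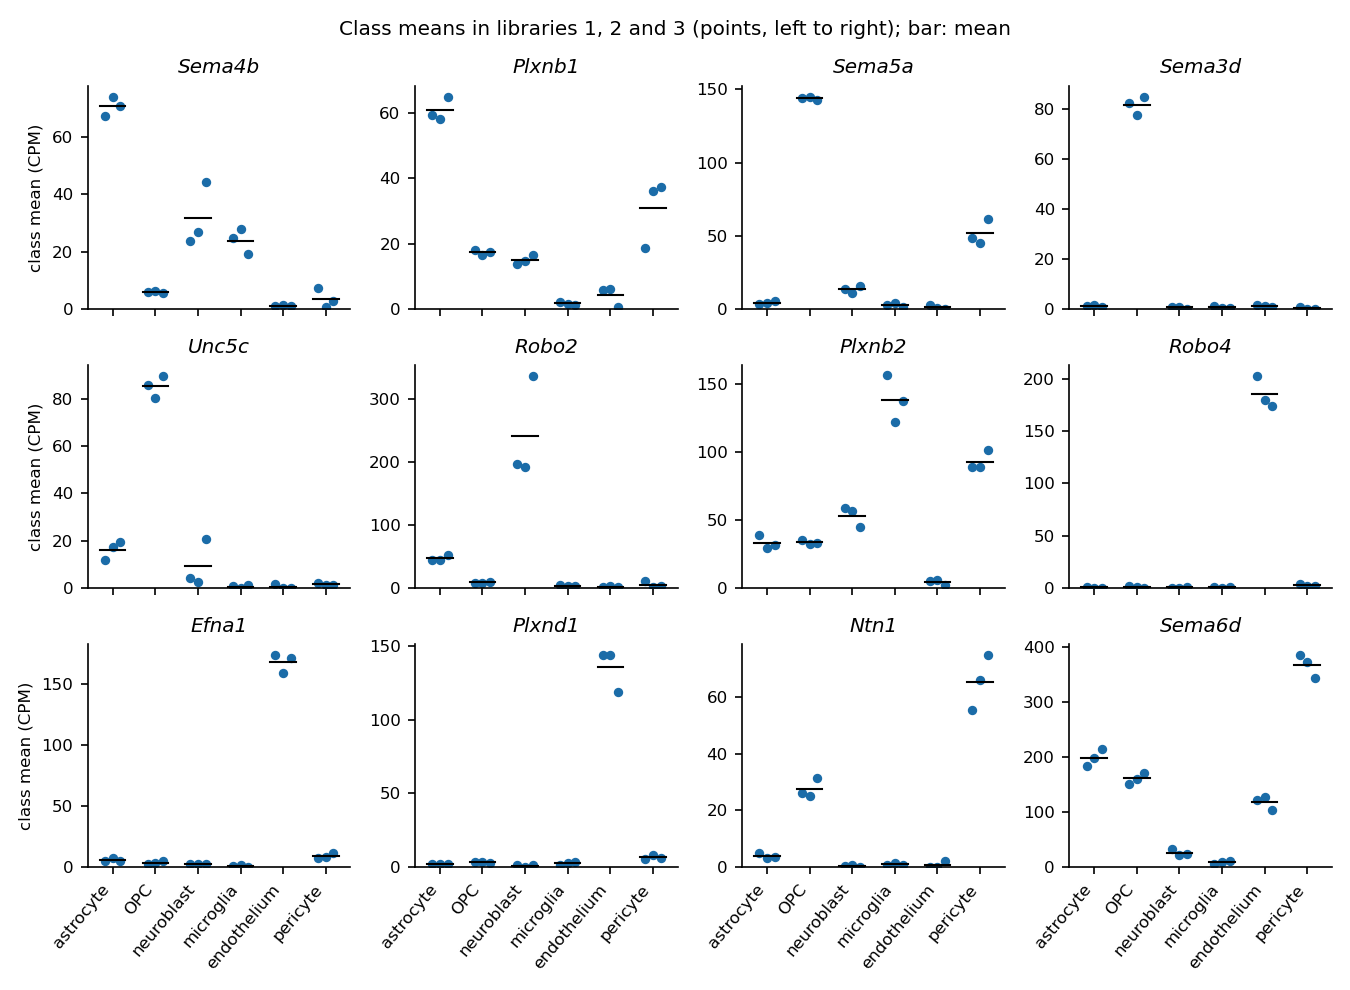
Class mean in CPM (linear axis from 0, scale differing between panels) of 12 members in the 6 fitted classes; each point is 1 of the 3 libraries, left to right, and the bar is their mean. Sema3d points rise above 1.59 CPM in OPCs only, Robo4 points lie between 174 and 203 CPM in endothelium, and the Robo2 point of library 3 in neuroblasts stands above those of the other libraries.

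Neuroblasts here are young cells of the interneuron lineage marked by Dlx1 and Sp9, dividing cells included. They were set against macroglia, the mean of the astrocyte and OPC values. Robo2 and the ephrin-B ligands Efnb2 and Efnb1 were higher in neuroblasts, while Sema6a, Sema6d, Epha5, Sema5b and Neo1 were far lower. Of 34 members, 30 passed, 9 higher and 21 lower, a share of 88.2% where 75.0% of all genes tested passed. Of all genes tested, 26.2% were higher and 48.8% lower in neuroblasts. The median was -0.50 for the members and -0.19 for all genes. Centred on the median gene, 12 were higher and 17 lower, and the median of all genes was 0.16. No share of all genes was taken after centring.

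Robo2 (chromosome 16, 73891839 to 74411825) was at 197, 193 and 338 CPM in neuroblasts. Library 3 was the highest, and all 3 values lay above those of every other class, the next being astrocytes at 47.3 ± 4.51 CPM. The difference from macroglia was 2.9 ± 0.15 (limma, adjusted p = 1.24e-12). Robo2 was above 0 in 1005 of 1809 neuroblasts (55.6%, exact 95% binomial interval 53.2 to 57.9%). In endothelium, the fitted class with its lowest level, it was above 0 in 8 of 774 cells (1.03%). Medians of detected genes were 1866 in neuroblasts and 2847.5 in endothelium. Intervals cover counting error only.

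Efnb2, a membrane ligand of EphB receptors, was at 61.0, 49.1 and 83.6 CPM in neuroblasts, against 8.76 to 17.0 CPM in astrocytes and 12.9 to 17.1 CPM in OPCs (1.68 ± 0.12, limma, adjusted p = 9.13e-11). Its range in neuroblasts overlapped that of endothelium, 58.3 to 62.6 CPM. Efnb1 was at 82.3, 69.4 and 70.0 CPM in neuroblasts and at most 36.0 CPM in the libraries of the other classes (1.38 ± 0.09 against macroglia, limma, adjusted p = 5.09e-11). Efnb3 was at 31.9 ± 8.81 CPM in neuroblasts and 33.3 ± 3.71 CPM in OPCs, with overlapping libraries.

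Among plexins, Plxna2 was at 40.6, 29.2 and 28.2 CPM in neuroblasts, 12.1, 10.5 and 13.1 CPM in astrocytes and 16.9 to 22.2 CPM in OPCs, and passed as higher (0.73 ± 0.09, limma, adjusted p = 3.51e-07). Plxnb2 was at 59.0, 56.2 and 44.5 CPM, above all astrocyte and OPC values (0.54 ± 0.09, limma, adjusted p = 3.02e-05). The neuroblast libraries of Plxna2 likewise lay above both glial ranges.

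Sema6a, a transmembrane semaphorin that binds plexin A receptors, had the largest difference of any member in this comparison. It was at 6.79, 7.49 and 11.2 CPM in neuroblasts, where astrocytes had 215 to 221 CPM and OPCs 158 to 167 CPM (-3.43 ± 0.09, limma, adjusted p = 2.05e-17). Sema6d, of the same class, was at 32.1, 21.9 and 23.1 CPM, against 184 to 215 CPM and 152 to 172 CPM (-2.42 ± 0.11, limma, adjusted p = 9.64e-14). Sema5b was at 4.50 to 6.06 CPM, against 46.0 to 53.9 CPM over both glial classes (-1.97 ± 0.08, limma, adjusted p = 8.82e-15). In none of these did the ranges meet.

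Receptors that were lower included Epha5, Ephb3 and Ephb1 of the Eph family, Neo1 and Unc5c of the netrin receptors, and the plexins Plxnc1 and Plxnb1. Epha5 was at 13.7, 6.92 and 22.1 CPM in neuroblasts, 131 ± 8.29 CPM in astrocytes and 155 ± 8.45 CPM in OPCs (-2.70 ± 0.14, limma, adjusted p = 4.77e-13). Neo1 was at 6.73 to 10.7 CPM (-1.80 ± 0.10, limma, adjusted p = 4.35e-12), and Ephb3 at 5.35 to 7.61 CPM (-1.48 ± 0.09, limma, adjusted p = 7.19e-12). Ephb1 was at 4.79 to 6.17 CPM, below all astrocyte and OPC values (-1.32 ± 0.08, limma, adjusted p = 5.03e-12). Unc5c was at 4.35, 2.35 and 20.7 CPM: library 3 stood just above the astrocyte values and the other libraries below them. Its difference was -1.67, -2.01 and -0.82 in libraries 1, 2 and 3 (-1.50 ± 0.17 in the fit, adjusted p = 8.65e-08 in limma). By contrast Epha4, at 87.7, 94.1 and 33.0 CPM, did not pass (-0.04 ± 0.17, limma, adjusted p = 0.829); without library 3 it was higher in neuroblasts (0.31, limma, adjusted p = 0.0106). Library 3 thus stood apart among neuroblast libraries for Robo2, Unc5c and Epha4. Dividing cell markers (Top2a, Mki67, Cenpf) summed to 467 to 1187 CPM in neuroblasts, 425 to 487 CPM in OPCs and 105 to 125 CPM in astrocytes. The lowest neuroblast sum was that of library 3, with Top2a at 590, 584 and 230 CPM in libraries 1, 2 and 3, and their part in these differences was not tested.

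Endothelium and pericytes form the capillary wall, and several guidance genes separated them. Robo4, Sema7a, Efna1, Plxnd1, Sema3c and Nrp2 were endothelial, while Plxnb2, Ntn1, Sema5a, Sema6d and Sema4c were higher in pericytes. Of the latter, Plxnb2 was higher still in microglia (138 CPM) and Sema5a in OPCs (144 CPM). Of 34 members, 23 passed, 11 higher and 12 lower in endothelium, a share of 67.6% where 64.7% of all genes tested passed. Of all genes tested, 24.1% were higher and 40.6% lower in endothelium. After centring 15 were higher and 11 lower, and without scaling per cell 14 and 12, so which direction was the more common turned with the scaling. Medians were -0.05 for the members and -0.13 for all genes.

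Robo4, the Robo receptor of vessels (chromosome 9, 37401897 to 37415115), was at 203, 180 and 174 CPM in endothelium and 1.47 to 4.25 CPM in pericytes, a difference of 3.97 ± 0.08 (limma, adjusted p = 1.46e-19). It was above 0 in 575 of 774 endothelial cells (74.3%, exact 95% binomial interval 71.1 to 77.3%) and in 0.306% to 1.41% of the cells of the other fitted classes. Efna1, an ephrin-A ligand (chromosome 3, 89271733 to 89281142), was at 174, 159 and 171 CPM against 7.56 to 11.6 CPM (3.22 ± 0.10, limma, adjusted p = 8.88e-17). Plxnd1, the receptor of Sema3e in vessels (chromosome 6, 115954811 to 115995005), was at 144, 144 and 119 CPM against 5.15 to 8.33 CPM (3.14 ± 0.10, limma, adjusted p = 1.67e-16). For all of these the endothelial libraries lay apart from those of every other fitted class.

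Sema7a, the semaphorin anchored by a lipid tail (chromosome 9, 57940112 to 57962865), was at 101, 91.5 and 120 CPM in endothelium and 0.735 to 2.58 CPM in pericytes (3.29 ± 0.12, limma, adjusted p = 2.57e-15). The secreted Sema3c was at 39.0, 44.1 and 62.6 CPM against at most 1.32 CPM (2.44 ± 0.15, limma, adjusted p = 2.28e-11), and its co-receptor Nrp2 at 45.3, 46.6 and 56.0 CPM against 2.23 to 3.84 CPM (2.20 ± 0.12, limma, adjusted p = 3.42e-12). Sema6a separated the wall too, with 226, 210 and 215 CPM against 32.6 to 46.5 CPM (2.21 ± 0.10, limma, adjusted p = 7.82e-14). None of these ranges overlapped between the classes. Smaller rises were seen for the arterial and venous pair Efnb2 (60.2 ± 2.19 against 13.7 ± 3.11 CPM; 1.58 ± 0.14, limma, adjusted p = 3.35e-09) and Ephb4 (48.6 ± 6.26 against 13.3 ± 2.10 CPM; 1.33 ± 0.08, limma, adjusted p = 1.13e-11).

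On the pericyte side, Plxnb2, the receptor of Sema4c (chromosome 15, 89155549 to 89180788), was at 89.0, 88.5 and 101 CPM and at 5.50, 5.58 and 2.38 CPM in endothelium (-2.83 ± 0.11, limma, adjusted p = 4.82e-15). Ntn1 (chromosome 11, 68209364 to 68400823) was at 55.3, 66.1 and 75.0 CPM and, in endothelium, at 0 in libraries 1 and 2 and 2.27 CPM in library 3 (-2.81 ± 0.10, limma, adjusted p = 2.12e-15). Sema5a was at 48.2, 45.1 and 61.6 CPM against at most 2.69 CPM (-2.48 ± 0.13, limma, adjusted p = 6.30e-13). Pericyte values stood clear of endothelial values in each of these genes. Sema6d, at 345 to 387 CPM against 103 to 127 CPM (-1.57 ± 0.13, limma, adjusted p = 1.03e-09), and Sema4c, at 98.1 to 119 CPM against 29.3 to 33.9 CPM (-1.53 ± 0.15, limma, adjusted p = 2.45e-08), had their highest fitted level in pericytes. Unc5b, a netrin receptor of vessels, was shared: 110, 110 and 125 CPM in endothelium and 122, 124 and 117 CPM in pericytes (-0.07 ± 0.10, limma, adjusted p = 0.559), with the sign turning under either other scaling and no call. The smooth muscle markers in the pericyte class were not tested for a part in these values.

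**Figure D3:**
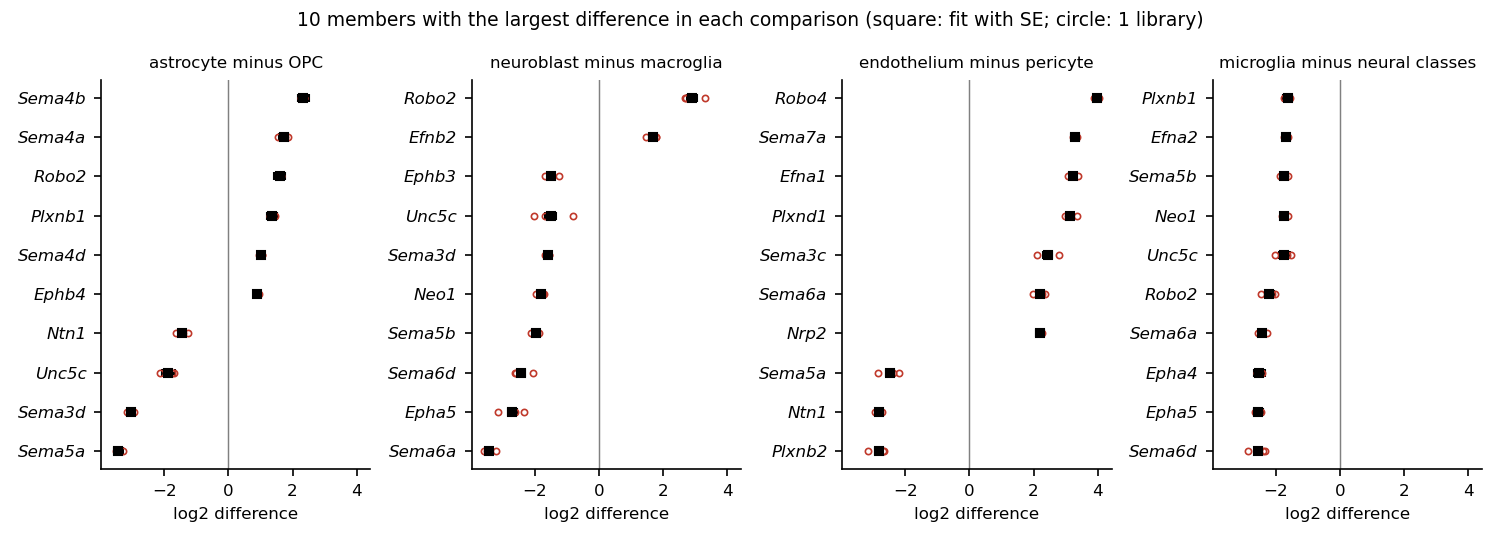
The 10 members with the largest difference in each of 4 comparisons, on the log2(mean CPM + 10) scale; the black square is the fitted difference with its SE and the open circles are the 3 libraries. Members were shown only if their 3 libraries had the same direction, so circles lie on 1 side of 0 by that choice; squares range from Robo4 at 3.97 in endothelium minus pericyte to Sema6a and Sema5a, each at -3.43, in neuroblast minus macroglia and astrocyte minus OPC.

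Microglia were set against the neural classes, the mean of astrocyte, OPC and neuroblast values. Plxnb2, Sema4d, Nrp2 and Sema4c were higher in microglia and 24 members were lower. Of 34 members 28 passed, 4 higher and 24 lower, a share of 82.4% against 81.7% of all genes tested; of all genes 24.0% were higher and 57.7% lower. The median was -1.10 for the members and -0.32 for all genes. With centring on the median gene the split was 9 higher and 20 lower, and the median of all genes -0.01.

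Plxnb2 was at 156, 122 and 137 CPM in microglia, above every library of the other 5 classes, with pericytes next at 92.7 ± 6.80 CPM (1.59 ± 0.09, limma, adjusted p = 1.37e-12). Sema4d, known in immune cells as CD100 (chromosome 13, 51685529 to 51793747), was at 44.9, 44.7 and 40 CPM and also lay above the other fitted classes, astrocytes being next (1.46 ± 0.07, limma, adjusted p = 2.18e-13). Nrp2 was at 20.3, 20.7 and 18.9 CPM, above the neural classes, at most 13.0 CPM, and below endothelium (0.73 ± 0.10, limma, adjusted p = 1.73e-06). Sema4c was at 31.1, 23.4 and 21.4 CPM, which overlapped the neuroblast values of 13.6 to 30.1 CPM (0.60 ± 0.12, limma, adjusted p = 0.000175).

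The largest falls were in class 6 semaphorins, EphA receptors and Robo2. Sema6d was at 5.01, 9.70 and 11.9 CPM in microglia (-2.54 ± 0.10, limma, adjusted p = 1.08e-14), below every library of the neural classes, whose lowest value was 21.9 CPM. Epha5, at 2.70 to 4.93 CPM (-2.54 ± 0.13, limma, adjusted p = 3.28e-13), and Epha4, at 1.24 to 5.03 CPM (-2.51 ± 0.16, limma, adjusted p = 9.95e-12), were likewise below all neural values. Sema6a, at 5.81 to 7.99 CPM, overlapped neuroblasts (-2.43 ± 0.08, limma, adjusted p = 4.66e-16). Robo2 was at 3.65 to 4.67 CPM (-2.20 ± 0.15, limma, adjusted p = 2.65e-11). Unc5c, Neo1, Sema5b, Efna2 and Plxnb1 followed, with differences of -1.73 to -1.63. Border macrophage markers stood at 481 to 768 CPM in this class and at most 49.9 CPM in the libraries of the other classes, and their part in the microglial values was not tested.

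Oligodendrocytes by the gate were only 8, 8 and 11 cells in libraries 1, 2 and 3, where the fit asked for 10 in each. No test was thus made for them, and the comparison with OPCs that had been planned was left out. Of the markers, Mbp was at a mean of 42780 CPM in these cells, Enpp6 at 2443 CPM and Bcas1 at 1394 CPM. Gpr17 was at 282 CPM, against 294 CPM in OPCs. Mog was at 416, 141 and 929 CPM, and Opalin at 0 in libraries 1 and 2 and 34.1 CPM in library 3. How mature the cells were was not tested. The values are given as a description. Sema4d, Plxnb3, Ephb1 and Sema6a were at levels not seen in any fitted class, and Epha5, a receptor common in OPCs, was not detected.

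Sema4d was at 1115, 1262 and 924 CPM in the 3 libraries of oligodendrocytes, where OPCs had 6.58 to 8.33 CPM. It was above 0 in 26 of 27 oligodendrocytes (96.3%, exact 95% binomial interval 81.0 to 99.9%), 110 of 2768 OPCs (3.97%) and 2 of 774 endothelial cells (0.258%). Plxnb3, a plexin B receptor below the minimum for testing in the other classes, was at 425, 313 and 180 CPM against 6.63 to 10.3 CPM in OPCs, and in 25 of 27 cells (92.6%, interval 75.7 to 99.1%) against 4.37% of OPCs. Sema6a was at 1125, 1122 and 1268 CPM against 158 to 167 CPM. The 3 libraries lay above all OPC values in each gene.

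Ephb1, an EphB receptor, was at 592, 422 and 493 CPM in oligodendrocytes and 19.1 to 25.1 CPM in OPCs, and was above 0 in 27 of 27 cells (interval 87.2 to 100%) against 11.3% of OPCs. Its ligand Efnb3 was at 169, 241 and 353 CPM against 29.1 to 36.0 CPM, and in 20 of 27 cells (74.1%, interval 53.7 to 88.9%) against 15.8% of OPCs. Sema5a, already high in OPCs, was at 831, 645 and 509 CPM. Sema3e was in 13 of 27 oligodendrocytes (48.1%, interval 28.7 to 68.1%) and 1.41% of OPCs.

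Not every precursor gene went with them. Epha5, above 0 in 53.5% of OPCs, was in 0 of 27 oligodendrocytes, a count that allows a share of cells with a value above 0 of up to 11.1% by 3 counts of the total (12.8% by the exact interval); it does not limit the share of cells that express the gene. Robo2, Ntn1, Plxnc1 and Nrp2 were also at 0 in all 27 cells. Sema3d was at 121, 123 and 126 CPM, above OPCs at 77.7 to 85.1 CPM, and Unc5c at 137, 52.0 and 137 CPM overlapped them. Median detected genes were 2719 in oligodendrocytes, 2652 in OPCs and 2847.5 in endothelium, whose shares serve as background; depth before the authors' correction is unknown, so the shares were not set to a common depth.

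**Figure D4:**
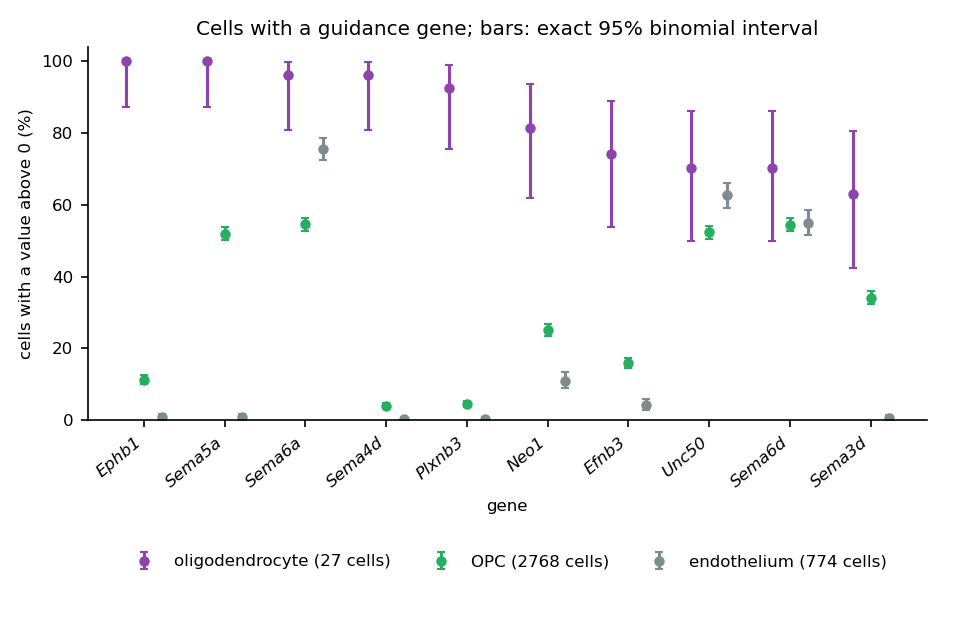
Share of cells with a value above 0 (%) for the 10 members most often found in oligodendrocytes, in oligodendrocytes, OPCs and endothelium, with exact 95% binomial intervals that cover counting error only. Ephb1, Sema4d and Plxnb3 are in at least 92.6% of oligodendrocytes and at most 11.3% of OPCs, whereas Unc50 and Sema6d have overlapping intervals in oligodendrocytes and endothelium.

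Ligands and receptors known to bind each other are set side by side here; some shared their highest class and others did not, and pairing itself was not tested. The Slit ligands were low throughout: Slit2 was at 17.7, 22.8 and 19.3 CPM in OPCs and Slit1 at 11.4, 8.04 and 18.8 CPM in neuroblasts, the highest fitted class of each, and Slit3 did not exceed 2.94 CPM in any library. Of their receptors, Robo1 was highest in OPCs (35.7, 37.0 and 41.9 CPM) and Robo2 in neuroblasts. Slit2 and Robo1 were thus highest in the same class, as were Slit1 and Robo2.

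Netrin-1 was highest in pericytes and second in OPCs. Among its receptors in the fitted classes, Unc5b was at its highest in pericytes and endothelium, Unc5c and Dcc in OPCs, and Neo1 in astrocytes; in oligodendrocytes Neo1 was at 167 and Unc5c at 109 CPM. By contrast Unc5a and Unc5d stayed at or below 10.9 CPM in every library of the fitted classes. Sema7a in endothelium had its receptor Plxnc1 elsewhere, at 37.5, 35.3 and 41.8 CPM in OPCs and 20.6 to 29.4 CPM in astrocytes, and at most 1.74 CPM in endothelium. Sema4d and Plxnb1 differed in their highest class. The ligand was highest in oligodendrocytes and microglia, where the receptor was at 0 and at 1.35 to 2.26 CPM. The receptor was highest in astrocytes, where the ligand was also found, at 24.1 to 28 CPM.

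Sema4c and Plxnb2 shared pericytes, at 109 ± 10.5 and 92.7 ± 6.80 CPM, while the lowest fitted level was in astrocytes for Sema4c and in endothelium for Plxnb2. Sema3c and Nrp2 were both highest in endothelium, where Sema3f, another ligand of Nrp2, did not exceed 2.05 CPM. Sema3e was found in oligodendrocytes, at 83.2, 87.4 and 74.5 CPM, and its receptor Plxnd1 in endothelium. Sema6a was high in astrocytes, OPCs, oligodendrocytes and endothelium, and Plxna2 in neuroblasts and endothelium. Plxna4, another receptor of Sema6a, was at 23.9, 8.13 and 34.0 CPM in neuroblasts, with library 2 inside the astrocyte range. Sema6d was highest in pericytes, in which Plxna1 was at 10.6 to 11 CPM.

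In the Eph system, the ligand Efnb1 was highest in neuroblasts, and its receptors Ephb1 and Ephb3 in astrocytes among fitted classes (36.6 ± 5.49 and 44.6 ± 4.89 CPM). Ephb2 was at 18.7, 12.1 and 11.6 CPM in neuroblasts and 12 to 13.4 CPM in OPCs, which overlapped. The ephrin-A ligand Efna2 was at 29.1 to 34.6 CPM in OPCs and 22.5 to 28.3 CPM in astrocytes (-0.25 ± 0.10, limma, adjusted p = 0.0435). It lost that call under 8 alternatives, among them each library left out (limma, adjusted p = 0.161, 0.0844 and 0.0835 without libraries 1, 2 and 3). These are the classes where Epha5 and Epha4 were high. Efna5 was at 9.89 to 14.2 CPM in astrocytes, 9.68 to 14.3 CPM in neuroblasts and at most 0.612 CPM in OPCs, and Efna3 at most 9.53 CPM anywhere. Efna1, the endothelial ligand, stood with Epha2, a receptor below the minimum for testing, which was at 33.0, 24.2 and 25.2 CPM in endothelium and at most 10.0 CPM in any library of another class.

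Efnb2 and Ephb4 are the textbook arterial and venous genes of endothelium, so endothelial cells were split by them; the split was chosen after values were seen, and is described without a test. Of 774 cells, 135 had Efnb2 only, 162 Ephb4 only, 67 both and 410 neither; 59.8 with both would follow from independence within libraries. Unc5b and Sema3g were higher in the cells with Efnb2 only, and Nrp2 in those with Ephb4 only. A difference of at least 2-fold in the same direction in all 3 libraries was met by 3 of 15 members with at least 20 CPM in endothelium, the defining Efnb2 and Ephb4 left out, and by 73 of 6231 such genes (1.17%).

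Unc5b was at 201, 243 and 289 CPM in the cells with Efnb2 only and at 86.0, 36.9 and 60.1 CPM in those with Ephb4 only. Sema3g, a class 3 semaphorin of arterial endothelium, was at 34.1, 38.9 and 142 CPM against 10.5, 7.43 and 14.1 CPM, with library 3 far above the other 2. Nrp2, a marker of veins and lymphatics, was at 19.5, 22.2 and 14.2 CPM against 71.6, 63.1 and 89.1 CPM. In these 3 genes the libraries of the sets did not overlap. Robo4 (187 ± 23.9 against 183 ± 10.7 CPM) and Plxnd1 (118 ± 11.2 against 142 ± 36.1 CPM) overlapped between the sets. Of 6 known vessel markers outside the families, Hey1 and Nr2f2 followed their known side in every library. Hey1, an arterial transcription factor, was at 224, 256 and 415 CPM against 144, 85.6 and 141 CPM, and Nr2f2, a venous one, at 15.9, 17.5 and 34.5 CPM against 49.6, 55.6 and 67.2 CPM. Slc38a5, a venous transporter, was also lower with Efnb2 only, at 960 to 1324 against 1698 to 1822 CPM. The arterial genes Gkn3 and Bmx were at 0 in library 1 of the Efnb2-only cells and at 41.3 to 294 CPM in libraries 2 and 3, against at most 13 CPM with Ephb4 only. Vwf, often used as a venous marker, was higher with Efnb2 only, at 276 to 344 against 248 to 257 CPM. Median detected genes were 2956 and 2837.5. Whether the cells with neither lack both genes cannot be told at this depth.

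**Figure D5:**
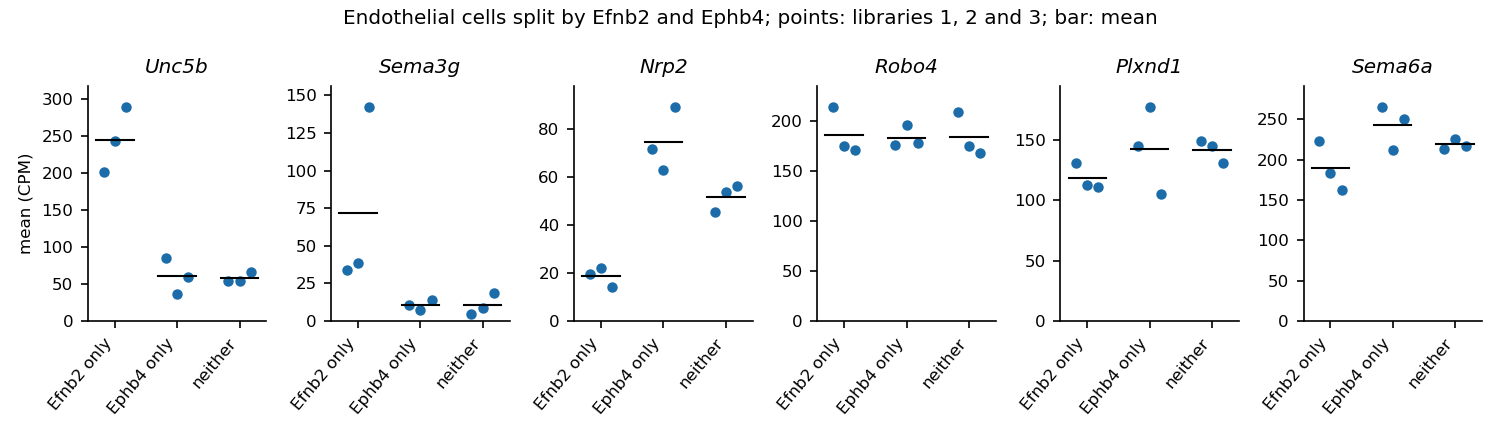
Mean CPM (linear axes from 0) of 6 members in endothelial cells with Efnb2 only (135 cells), Ephb4 only (162) or neither (410); points are libraries 1, 2 and 3 from left to right and the bar is their mean. Unc5b and Sema3g are higher and Nrp2 lower in cells with Efnb2 only in every library, while Robo4 and Plxnd1 overlap.

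Guidance receptors act on the cytoskeleton through shared partners, and a list of 54 such genes, 46 of them tested, was read in the same fit. It holds collapsin response mediators, regulators of the actin cytoskeleton, kinases, and adhesion co-receptors. Each of the 46 differed among the classes, as did 98.9% of all genes tested. Between astrocytes and OPCs 35 passed, 10 higher and 25 lower in astrocytes. Ngef (ephexin), an exchange factor downstream of EphA receptors, was at 103 to 110 CPM in astrocytes and 11.2 to 15.5 CPM in OPCs (2.32 ± 0.10, limma, adjusted p = 8.63e-14), and Rgma, a ligand of neogenin, at 176 to 186 against 27.7 to 30.5 CPM (2.31 ± 0.10, limma, adjusted p = 1.79e-13). Dscam, an adhesion molecule that can bind netrin, was lower at 0.633 to 1.82 against 81.5 to 101 CPM (-3.17 ± 0.11, limma, adjusted p = 5.61e-15), as was the kinase Pak3 (-2.42 ± 0.10, limma, adjusted p = 2.38e-14).

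In neuroblasts against macroglia 39 passed, 16 higher and 23 lower, and 23 and 14 after centring. Crmp1, which relays class 3 semaphorin signals, was at 391, 383 and 488 CPM in neuroblasts and at most 66.3 CPM in the libraries of the glial classes (3.46 ± 0.10, limma, adjusted p = 9.37e-17). Rnd3 was at 281, 268 and 360 CPM (3.36 ± 0.12, limma, adjusted p = 1.82e-15). The adhesion co-receptor Chl1 was lower, at 2.11 to 7.04 CPM where astrocytes had 149 to 166 and OPCs 253 to 259 CPM (-3.83 ± 0.10, limma, adjusted p = 2.25e-17), and so was Rgma (-2.43 ± 0.09, limma, adjusted p = 5.36e-15).

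In endothelium against pericytes 32 passed, 14 higher and 18 lower, or 17 and 14 without scaling per cell. Tiam1, an activator of Rac, was at 216 to 240 CPM against 0.408 to 2.52 CPM (4.41 ± 0.10, limma, adjusted p = 1.66e-18), and Ablim1, an actin-binding protein, at 514 to 578 against 72.3 to 86.3 CPM (2.66 ± 0.13, limma, adjusted p = 1.73e-13). Rnd3 (-3.62 ± 0.13, limma, adjusted p = 3.50e-15) and Rgma (-2.68 ± 0.10, limma, adjusted p = 8.06e-15) were higher in pericytes. In microglia against the neural classes 42 passed, 11 higher and 31 lower. The tyrosine kinase Fes was at 58.2 to 64.3 CPM in microglia and at most 1.49 CPM in neural libraries (2.73 ± 0.07, limma, adjusted p = 4.24e-18), and Srgap2, a GTPase-activating protein of the Slit and Robo pathway, at 149 to 157 CPM (1.45 ± 0.06, limma, adjusted p = 2.10e-14). Dpysl3 (-3.46 ± 0.12, limma, adjusted p = 1.17e-15) and the actin regulator Enah (-3.30 ± 0.09, limma, adjusted p = 2.01e-17) were lower. Against 62.8%, 75.0%, 64.7% and 81.7% of all genes in these comparisons, 76.1%, 84.8%, 69.6% and 91.3% of the partners tested passed. In the same order, 21.2%, 26.2%, 24.1% and 24.0% of all genes were higher, and 41.5%, 48.8%, 40.6% and 57.7% lower.

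The rows that are not guidance genes behaved apart. Unc50, which shares only the prefix, was at 119 to 146 CPM in astrocytes, OPCs and endothelium and lower in neuroblasts, at 42.7 to 47.0 CPM. Plxna4os1 and Plxna4os2, antisense to Plxna4, were under the minimum for testing, as was Unc5cl. Plxna4os1 was at 9.2, 20.3 and 18.3 CPM in microglia and at a mean of 0.172 CPM in neuroblasts. Plxna4 had means of 5.57 CPM and 22 CPM there. Plxna4os2 and Unc5cl did not exceed means of 0.0543 and 0.371 CPM in a fitted class. Whether counting used the strand is not given in the sources used here, so reads of Plxna4 and its antisense rows may not be told apart.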

How the data were processed

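Single cells of 3 libraries were measured on the 10x Genomics Chromium platform. The submitters' processing notes name CASAVA 1.8, Cell Ranger, Seurat and build mm10. The deposited values are on a natural log scale, since each of 34958786 values above 0 is ln(1 + a whole number), within 1e-06. The whole numbers sum to 4422 to 8135 per cell while detected genes range from 121 to 4213, so they are read as counts the authors corrected for depth by a method not given in the sources used here. The depth before correction is unknown and no count model was fitted.

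The log was undone, each cell scaled to 1000000, and cells averaged by class and library. For the tests, limma 3.58.1 (R 4.3.3) was run on log2(mean + 10 CPM) over the 6 classes that had 10 or more cells per library, with the trend option and the library as a blocking term (10 residual degrees of freedom). The test took in the 9768 genes at or above 10 CPM on average over the class means, with Benjamini-Hochberg adjustment over all of them, two-sided, at 0.05. The added 10 CPM draws differences of low genes toward 0. The fit was also run on simulated class means, in which most genes did not differ among classes and no library effect was added. In the real classes 98.9% of the genes tested differed, so that run does not vouch for this setting. Classes of a library share its sample, hence the block. Their deviations from class means correlated with a median r of 0.11 within a library (0.03 to 0.27, 45 pairs) and -0.08 between libraries. Deviations sum to 0 within a class, which draws the value between libraries below 0, so these values are no test of the block.

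The members and lists were chosen with earlier results of these data known. Named members are the 10 with the largest difference, past the threshold and in the same direction in all 3 libraries, in each comparison, the highest member of each family, and listed ligand and receptor pairs; of the partner list, 2 in each direction. Other members were picked after their values were seen. In astrocyte minus OPC these were Sema4c, Efna2, Neo1, Plxnb2 and Sema5b, and for neuroblasts Efnb1, Plxna2, Plxnb2, Ephb1 and Epha4. For endothelium they were Efnb2, Ephb4, Plxna2, Sema6d, Sema4c, Plxnb1 and Unc5b, and for microglia the 4 higher there. Plxna2 and Plxnb1 in endothelium minus pericyte are counted among the single gene results but not described. Coordinates are from GENCODE M21 and promoters from RefSeq GRCm38.p6. Cells in 2 classes were dropped as possible doublets. Dropping 287 cells called by Scrublet (scanpy 1.11.5) was an alternative. Most of these calls, 74, 53 and 66 in libraries 1, 2 and 3, were in the cells of 2 classes already dropped. The alternative thus took at most 11 cells from any fitted class in 1 library and could move little. Other alternatives were the pseudocount, the filter, scaling, centring, the block, each library left out, a stricter gate, only the compared classes, and, chosen after the class sizes were seen, oligodendrocytes kept in the fit. Exact intervals are Clopper-Pearson at 95%, and a count of 0 allows 3 counts of the total.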

Additional observations from a re-analysis of the deposited data

Results flagged for a closer look

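The 2136 cells that met no class rule entered none of the comparisons, and 3 members had a level there above every fitted class in all 3 libraries. That is 4.29% of the 70 members, where 423 of all 20368 genes (2.08%) did so. Plxnb3, a plexin B receptor, was at 25.8, 32.8 and 30.9 CPM in those cells (mean 29.8), against 8.70 CPM in OPCs, the highest fitted class; oligodendrocytes, outside the fit, had 306 CPM. Epha3, an EphA receptor, was at 16.3, 15.3 and 11.3 CPM (mean 14.3), against 6.50 CPM in neuroblasts. Epha7, of the same family, was at 11.5, 12.1 and 7.14 CPM (mean 10.3), against 4.85 CPM in OPCs. The median of detected genes in these cells was 2294.5. The cells are not 1 type, and which of them carried the genes was not tested.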

How the results depend on the processing

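Depth before the authors' correction is unknown, the spread comes from 3 libraries, and low members could pass through 1 class. The filter set the counts. Without it 70 members were tested and 63 passed in the F test. In astrocyte minus OPC 39 passed, in neuroblast minus macroglia 49 and in microglia minus neural classes 54. At 50 CPM only 6 members were tested, and 6, 2, 6 and 6 passed in those tests, with 3 in endothelium minus pericyte. Of the 20 partners tested at 50 CPM, 20 passed in the F test and 15 in astrocyte minus OPC. In neuroblast minus macroglia 19 did, in endothelium minus pericyte 16 and in microglia minus neural classes 19. Fewer genes are tested at 50 CPM (3799 in all), and more without a filter (19936). The share of all genes that passed was taken under the main setting only. Counts under the alternatives, here and below, thus have no such share to be read against. The other alternatives moved no total of genes passing by over 1.5 times, but centring took members higher in microglia from 4 to 9 and partners lower in neuroblasts from 23 to 14. Without each library in turn the members passing were 19 to 21, 26 to 30, 21 to 25 and 27 to 29 in the 4 comparisons. Without the replicate block they were 23, 30, 24 and 28, and the block changed no call among 77 single gene results (61 for members, 16 for partners), which the alternatives gave 946 values. Of these, 926 kept direction and side of the threshold. The call of Efna2 in astrocyte minus OPC was lost in 8, and Neo1 there passed in 3. The other 9 were changes of sign in differences that had not passed: Plxnb2 in astrocyte minus OPC was 0.09 unscaled, 0.12 centred and -0.08 to 0.03 with 1 library left out; Sema5b there was 0 without library 3; Epha4 in neuroblast minus macroglia was 0.31 centred and -0.26 to 0.31 with 1 library left out, the 0.31 without library 3, where it passed; Unc5b in endothelium minus pericyte was 0.18 unscaled and 0.04 centred. The F test has no version with only the compared classes, and the comparison of oligodendrocytes with OPCs was not made.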
